A study of Mus musculus with 6 samples.

Results

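Imprinted genes can be expressed from 1 parental copy only, and a list of 37 genes given under that name was followed here in the SALL4 binding data of mouse embryonic stem cells. The members were taken from a given list of genes, and all 37 were found among the 49943 genes read from the RefSeq table of GRCm38.p6. For each gene, every SALL4 interval in the gene body or within 20 kb of either end was counted. Members on 1 chromosome with gaps of at most 3 Mb were treated as a cluster, which gave 6 clusters of several genes and 10 genes that stood alone. One name on the list, Ascl4, lies alone on chromosome 10, away from the other members. Its relative Ascl2 is the family member known to be imprinted, in the distal chromosome 7 cluster, and Ascl4 is therefore given as a listed gene only. Ascl4 stays among the 37 genes in every count unless its removal is stated.

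SALL4 binding was read by CUT&RUN: cells are permeabilised, an antibody finds the protein, and a tethered nuclease releases the DNA beside it for sequencing. The cells were embryonic stem cells in a medium with inhibitors of differentiation signals (2i) and the cytokine LIF. One line carried floxed Sall4 alleles (Sall4 F/F), which leave Sall4 whole between recombinase sites and which the titles call wild type, and the other was a Sall4 knockout (Sall4 -/-). Each line had 2 SALL4 libraries and 1 IgG library, and the IgG libraries, named so by their titles, were not analysed here as samples. Each genotype was 1 line, so genotype and line cannot be told apart, and nothing in the labels says whether the 2 libraries of a line came from separate cultures. A peak list holds no expression values, so the cell type was not checked against markers.

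In imprinted clusters a control region is methylated on 1 parental chromosome, often at the start of a long non-coding RNA or of a gene read from the unmethylated copy. The proteins ZFP57 and TRIM28 hold that methylation through the early embryo and in embryonic stem cells, where ZFP57 recognises the letters TGCCGC when methylated. SALL4 is a zinc-finger protein known for its role in early embryos and germ cells, and its C-terminal zinc fingers are known to bind short A/T-rich sequences. Kcnq1ot1, Airn, Snrpn, Peg3, Mest, Nnat, Nap1l5 and Zrsr1 are members whose starts lie at such germline control regions.

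The promoters of 5 genes are shown because they carry the contrast described further on, each as RefSeq gives it on GRCm38.p6, 300 bases from 250 before the gene start, in the direction of transcription. The first has a region called in both wild-type lists at its start, which the interval of replicate 2 alone covers, and capitals mark the 241 bases inside the joined region (chr7:143296498-143296797, minus strand).
Kcnq1ot1: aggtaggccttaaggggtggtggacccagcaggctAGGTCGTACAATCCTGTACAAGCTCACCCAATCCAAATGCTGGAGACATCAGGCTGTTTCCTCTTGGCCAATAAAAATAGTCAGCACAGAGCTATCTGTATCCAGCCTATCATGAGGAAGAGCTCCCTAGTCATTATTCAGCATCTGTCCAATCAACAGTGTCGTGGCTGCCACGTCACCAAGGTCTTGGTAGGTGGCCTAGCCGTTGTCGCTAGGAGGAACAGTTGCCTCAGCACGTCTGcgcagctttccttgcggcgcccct
The next pair have such a region within 1 kb of the start, outside the printed bases (chr17:12741061-12741360, plus strand; chr7:60005150-60005449, minus strand). In these and in the last pair, capitals mark TGCCGC or ATATT, read on both strands (as GCGGCA or AATAT).
Airn: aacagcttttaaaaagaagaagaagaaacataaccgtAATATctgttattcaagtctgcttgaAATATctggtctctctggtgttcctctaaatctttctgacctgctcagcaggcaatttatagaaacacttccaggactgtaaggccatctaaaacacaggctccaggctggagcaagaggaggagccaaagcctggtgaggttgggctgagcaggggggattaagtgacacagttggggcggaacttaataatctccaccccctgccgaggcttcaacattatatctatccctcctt
Snrpn: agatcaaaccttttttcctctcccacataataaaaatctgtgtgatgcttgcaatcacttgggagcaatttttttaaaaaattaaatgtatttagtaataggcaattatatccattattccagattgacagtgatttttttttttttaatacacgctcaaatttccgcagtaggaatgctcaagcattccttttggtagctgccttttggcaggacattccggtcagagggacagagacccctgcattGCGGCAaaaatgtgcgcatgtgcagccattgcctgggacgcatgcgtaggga
The last pair have no such region within 20 kb of the gene (chr6:30737803-30738102, plus strand; chr6:58907077-58907376, minus strand).
Mest: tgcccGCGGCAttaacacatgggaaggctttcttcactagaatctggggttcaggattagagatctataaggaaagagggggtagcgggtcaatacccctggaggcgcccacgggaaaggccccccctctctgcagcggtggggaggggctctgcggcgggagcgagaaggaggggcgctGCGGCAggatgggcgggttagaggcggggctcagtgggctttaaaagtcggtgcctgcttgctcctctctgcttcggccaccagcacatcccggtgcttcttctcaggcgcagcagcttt
Nap1l5: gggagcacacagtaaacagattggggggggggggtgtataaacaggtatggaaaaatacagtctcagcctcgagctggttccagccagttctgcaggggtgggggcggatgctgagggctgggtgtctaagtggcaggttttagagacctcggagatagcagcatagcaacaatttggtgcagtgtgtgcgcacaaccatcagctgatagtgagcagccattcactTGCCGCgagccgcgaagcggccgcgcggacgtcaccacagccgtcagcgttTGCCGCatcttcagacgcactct
TGCCGC was present in 11 of the 43 promoters listed for 30 members, which is 25.6%, against 11.6% of all 32851 promoters of this length. ATATT, a short A/T-rich sequence, was present in 8 of 43, which is 18.6%, against 25.3% of all promoters. The median G+C content was 55.7% at the members and 52.7% over all promoters. TGCCGC holds a CpG, and the median number of CpGs was 13 at the members and 7 over all promoters. The part of base composition in the share with TGCCGC was not tested. Several of these promoters belong to 1 gene or overlap each other, and a match describes the letters only. No promoter entry was used for H19, Ins2, Kcnq1, Cdkn1c, Peg10, Sgce and Impact, and for these either gene end was taken as the start.

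All SALL4 intervals at the imprinted genes came from the wild-type libraries. The windows of the 37 genes, which cover 3278 kb when joined, held 96 and 80 intervals in wild-type replicates 1 and 2, and 0 in each knockout replicate. The mean was 88 ± 11.3 intervals (SD, n = 2) in wild type and 0 in the knockout. The difference was 6.47 on the log2(number + 1) scale, against a spread of 0.184 (SD, log2) between the wild-type libraries. Permuting the 4 libraries exactly, two-sided, gave p = 0.33, the smallest p that permuting 2 against 2 libraries allows. Of all coding genes, 0.00914% had a knockout interval in the same kind of window, so 0 at 37 genes is close to what the whole knockout lists show. Over the genome there were 55058 and 48295 intervals in replicates 1 and 2 of wild type, against 34 and 39 for the knockout.

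The depth behind a call was recovered from the deposited fold enrichment (summit pileup over local background, as the peak caller gave it) and p-value. Among 2000 lines drawn at random from each wild-type list, before merging, the median summit pileup was 9 fragments and the lowest was 4. Of the intervals at imprinted genes, 66 of 96 in replicate 1 (68.8%, 95% Wilson interval 58.9 to 77.1) and 65 of 80 in replicate 2 (81.2%, 71.3 to 88.3) overlapped an interval of the other list. Over all intervals these shares were 70.4% and 79.3%. The 30 and 15 intervals found in 1 list only had median pileups of 6 and 5 fragments. The Wilson bounds cover counting error only.

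A region present in both wild-type lists and overlapping no knockout interval is called a consensus region here. The windows held 64 of them, of 37997 in the genome, and 19 of the 37 genes had at least 1. That is 51.4% of the members, and 51.4% of all 21887 coding genes had at least 1 in the same kind of window. The median density was 0.0555 consensus regions per 10 kb of window over the members and 0.0550 over all coding genes. Counting each list separately, 23 members had an interval in replicate 1, against 59.6% of coding genes, and 23 had one in replicate 2, against 56.5% of coding genes. In a single list the median densities were higher, at 0.157 per 10 kb in replicate 1 and 0.127 in replicate 2, and the coding genes again had similar medians of 0.155 and 0.125. The share and the median density of the list were thus close to those of all coding genes. The median density without Ascl4 was 0.0278 per 10 kb.

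Each member was also set against coding genes of similar body length (the shorter at least 0.8 times the longer), which were 235 to 2763 genes. Of the 37 members, 14 had more consensus regions than the median of their size-matched genes, 14 had the same number and 9 had fewer. A member whose matched median is 0 cannot have fewer, and 11 of the 14 ties were at 0. Among the 20 members with a matched median of 1 or more, 8 had more, 3 had the same number and 9 had fewer. Windows of neighbouring members overlap, so a region can count for more than 1 of them, here and in the 19 members above. All 3 regions of Peg10 also counted at Sgce, and all 3 of Peg3 at Usp29. The 2 of Kcnq1 also counted at Kcnq1ot1, and the 1 of Igf2r at Airn. On average 55.4% of the size-matched genes had a consensus region, against 51.4% of the members. The median of their median densities was 0.108 per 10 kb. It is a median of group medians, and so not the same measure as the 0.0555 of the members, a median of single genes. The mean densities were 0.187 per 10 kb over the members and 0.188 over all coding genes. The plot of intervals by gene shows how unevenly the regions were spread around the medians of the size-matched genes.

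**Figure D1:**
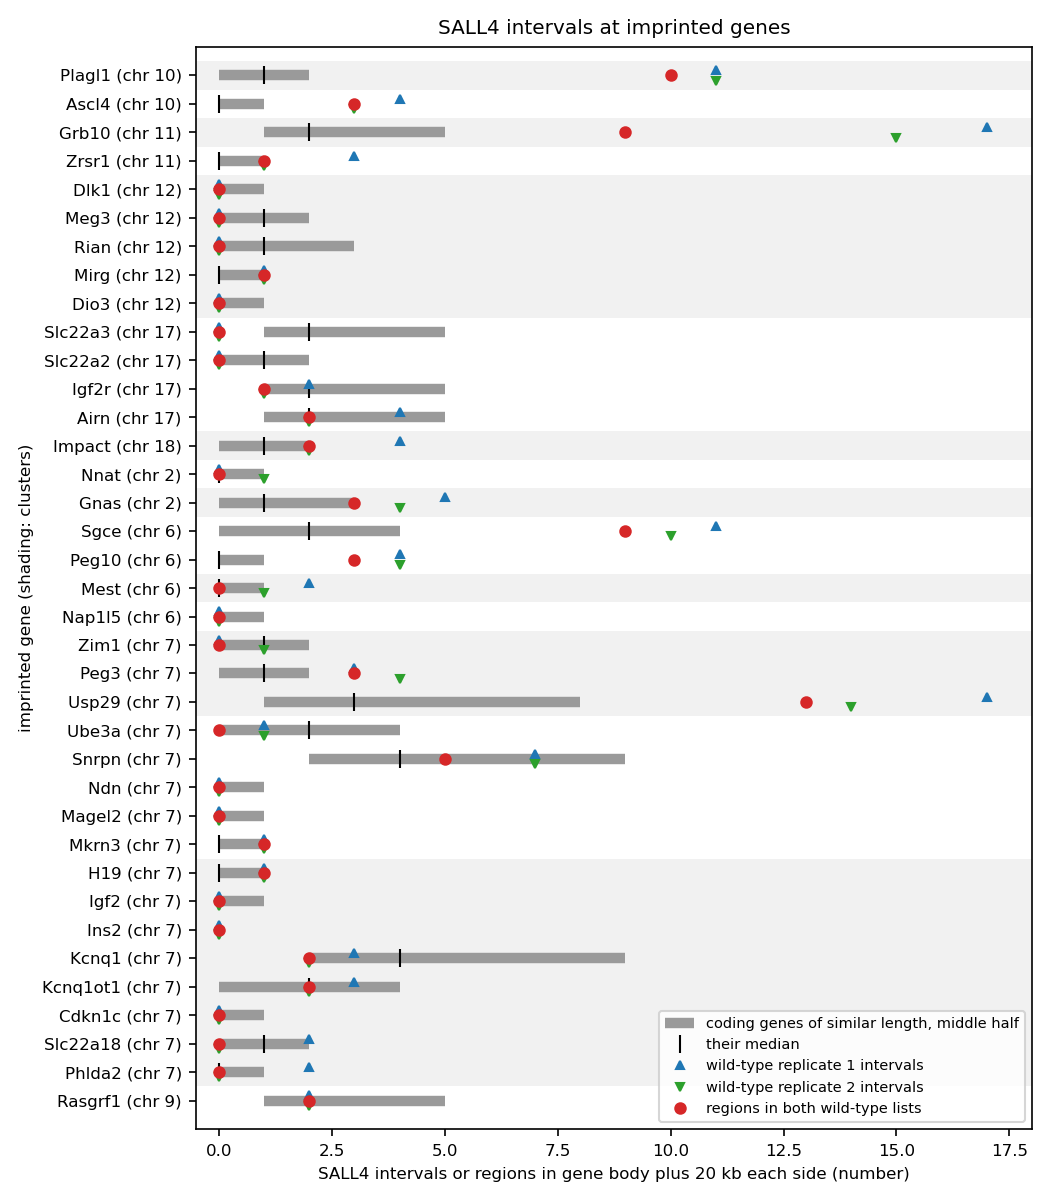
Number of SALL4 intervals (triangles, 1 per wild-type replicate) and of consensus regions (circles) in the gene body plus 20 kb each side of the 37 listed genes, with the range from the lower to the upper quartile (grey bar) and the median (tick) of coding genes of similar length. Usp29, Plagl1, Grb10 and Sgce lie beyond the grey bars with 9 to 13 consensus regions, and 18 genes have 0.

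Of the 16 clusters and single genes, 8 lay below the 0.187 consensus regions per 10 kb of all coding windows joined and 8 above. Those below were 4 of the 6 clusters of several genes, from Dlk1 to Dio3, Slc22a3 to Airn, Ube3a to Mkrn3 and H19 to Phlda2, and 4 of the 10 single genes, Nnat, Mest and Nap1l5 at 0 and Rasgrf1 at 0.127. By their joined windows, the same 8 lay below the density of their own chromosome. Sequence between the windows of a cluster is left out of these densities. From its first window to its last, the Dlk1 to Dio3 cluster held 11 regions in 868.6 kb, where chromosome 12 had 0.129 per 10 kb. The spans from Slc22a3 to Airn, Ube3a to Mkrn3 and H19 to Phlda2 held 2 in 479.9 kb, 9 in 3231.4 kb and 5 in 967.6 kb. Of all 64 regions, 41 lay in the windows of Usp29, Plagl1, Grb10 and Sgce.

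**Figure D2:**
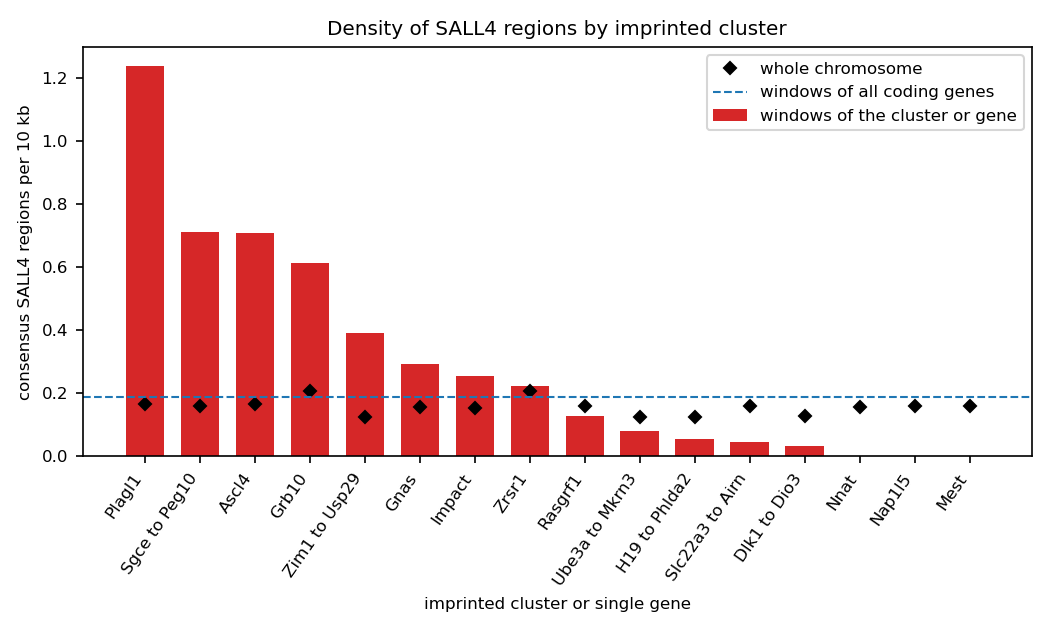
Consensus SALL4 regions per 10 kb of joined gene windows for each imprinted cluster or single gene (bars), with the density of its whole chromosome (diamonds) and of all coding windows joined (dashed line). Plagl1 reaches 1.24 per 10 kb, and 8 of the 16 lie below their chromosomes: the clusters from Dlk1 to Dio3, Slc22a3 to Airn, Ube3a to Mkrn3 and H19 to Phlda2, and Nnat, Mest, Nap1l5 and Rasgrf1.

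The distal chromosome 7 cluster holds the growth factor gene Igf2, the non-coding RNA H19 that shares its enhancers, the insulin gene Ins2, and, further along, the potassium channel gene Kcnq1 with the antisense RNA Kcnq1ot1 inside it. Kcnq1ot1 silences its neighbours on the paternal copy, among them Cdkn1c, which encodes a cell cycle inhibitor, and Phlda2, a brake on placental growth. The 8 members of this cluster had 6 and 3 intervals in the wild-type lists and 3 consensus regions, or 0.0548 per 10 kb against 0.126 over chromosome 7. All 3 lay at H19 and Kcnq1ot1. Igf2, Ins2, Cdkn1c, the transporter gene Slc22a18 and Phlda2 had none. Slc22a18 and Phlda2 shared 2 intervals of replicate 1, at 4 and 8 fragments, and had 0 in replicate 2.

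The consensus region at Kcnq1ot1 (gene ID 63830) overlapped its start, which is the control region of this side of the cluster and the first of the printed promoters. It lay on chromosome 7 at 143296522 to 143296762, inside the Kcnq1 gene. Its fold enrichment was 3.44 in replicate 1 and 5.03 in replicate 2 (mean 4.24 ± 1.12, SD, n = 2), from 4 and 9 fragments. The interval of replicate 1 lay 117 bp upstream of the start, and that of replicate 2 covered it. A further region at 143290000 to 143290175, inside Kcnq1ot1, rested on 4 fragments in each list. At H19 the region lay at 142581396 to 142581550, 3.25 kb from the gene on the side of Igf2, where the control region of H19 and Igf2 is known to lie. It had fold enrichments of 3.44 and 4.08 from 4 and 5 fragments. The calls at H19 and inside Kcnq1ot1 thus lay at or next to the lowest pileup among the lines sampled from either list, which is 4. The call at the Kcnq1ot1 start did so in replicate 1 only. In replicate 2 its 9 fragments equalled the median of the lines sampled from that list, and it ranked 29057. By the worse of their ranks of fold enrichment the 3 regions were tied at 50944.

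The central chromosome 7 cluster is the mouse counterpart of the Prader-Willi and Angelman syndrome region. It holds Snrpn, which encodes a splicing protein and whose start is the control region, the ubiquitin ligase gene Ube3a, and the paternally expressed genes Ndn, Magel2 and Mkrn3. Its 5 members had 9 intervals in each wild-type list and 6 consensus regions, 5 at Snrpn and 1 beside Mkrn3. Of the 5 at Snrpn, 4 lay around 1 of its 4 listed starts, at position 60005199. The strongest lay upstream of that start, at 60006164 to 60006779, with the edge of its interval 965 bp away in replicate 1 and 1032 bp away in replicate 2. Its fold enrichments were 22.3 and 23.1 (mean 22.7 ± 0.588, SD, n = 2), from 32 and 36 fragments. By the worse of its ranks in the 2 lists, it stood within the best 2.85% of consensus regions. The others near this start lay 1990 bp downstream, with fold enrichments of 10.3 and 8.16, and 2547 bp upstream, with 9.65 and 8.55. The weakest of the 4 lay 8163 bp upstream, with 5.41 and 7.34.

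Ube3a had 1 interval in each wild-type list, 53.4 and 58.9 kb from its start, and these did not overlap. The gene lay in a stretch of 1191.6 kb without a consensus region. Of the autosomal sequence between neighbouring consensus regions, 5.21% lies in gaps at least as long, and by number 0.203% of the gaps are. Ndn and Magel2 had 0 in both lists. The region beside Mkrn3, 12.1 kb upstream of its start, had fold enrichments of 6.20 and 4.08. Coding genes as long as Snrpn had a median of 4 consensus regions, and 47.7% of them had at least as many as its 5.

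The proximal chromosome 7 cluster held far more regions. Peg3 and Usp29, which encode a zinc-finger protein and a ubiquitin-specific protease, are both read from the paternal copy from starts 164 bp apart. Zim1, a zinc-finger gene read from the maternal copy, lies beside them. Usp29 had 17 and 14 intervals and 13 consensus regions in the gene, which spans 236.7 kb, and its flanks, where coding genes of similar length had a median of 3 and 11.7% of them had as many or more. The strongest lay inside Usp29 at 6760095 to 6761296, with fold enrichments of 17.3 and 12.6 (mean 14.9 ± 3.32, SD, n = 2). Around the shared promoter, 1 region lay 1.48 kb inside Peg3 (6.61 and 6.04) and 1 lay 1.38 kb inside Usp29 (6.72 and 5.34). Peg3 had 3 consensus regions in its window, all of them shared with Usp29, and Zim1 had 0 with 1 interval in replicate 2.

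The chromosome 12 cluster holds Dlk1, a growth regulator read from the paternal copy, the maternal non-coding RNAs Meg3, Rian and Mirg, and Dio3, which encodes an enzyme that inactivates thyroid hormone. Dlk1, Meg3, Rian and Dio3 had 0 intervals in both wild-type lists. Mirg had 1 in each, and they formed a weak consensus region 17.3 kb beyond the gene, at 109766594 to 109766982, with fold enrichments of 4.82 and 3.40 from 6 and 4 fragments. No consensus region lay between 109017591 and 109766593, a stretch of 749 kb that holds Dlk1, Meg3, Rian and Mirg, and neither wild-type list had an interval in it. Such a stretch is not rare in sequence terms, as 12.8% of the autosomal sequence between neighbouring consensus regions lies in gaps at least as long. By number, 0.752% of the gaps are at least as long. None of the 58 microRNA hairpins that RefSeq places between Dlk1 and Dio3 overlapped a wild-type interval, and over the genome 8 of 1005 overlapped a consensus region. Between the windows of Mirg and Dio3, outside any annotated gene, 10 consensus regions lay in 489.8 kb, with fold enrichments up to 15.2 and 15.1.

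The chromosome 17 cluster holds Igf2r, a maternally expressed receptor that clears IGF2, and the antisense RNA Airn, whose start inside Igf2r is the control region. Airn silences Igf2r, Slc22a2 and Slc22a3, the last pair being transporters of organic cations. Slc22a2 and Slc22a3 had 0 intervals in both lists and lay in a stretch of 474.1 kb with none. Of the autosomal sequence between neighbouring consensus regions, 25.4% lies in gaps at least as long, and by number 2.18% of the gaps are at least as long. Of the coding genes as long as Slc22a2 and Slc22a3, 36.7% and 24.6% had no consensus region. Airn had 4 and 2 intervals and 2 consensus regions. One lay 663 bp upstream of its start, inside Igf2r, at 12740386 to 12740648, with fold enrichments of 3.38 and 4.02 from 4 and 7 fragments. The other lay inside Airn at 12802273 to 12802913, with 8.13 and 6.67 (mean 7.40 ± 1.03, SD, n = 2). The cluster had 0.0466 consensus regions per 10 kb against 0.160 over chromosome 17.

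**Figure D3:**
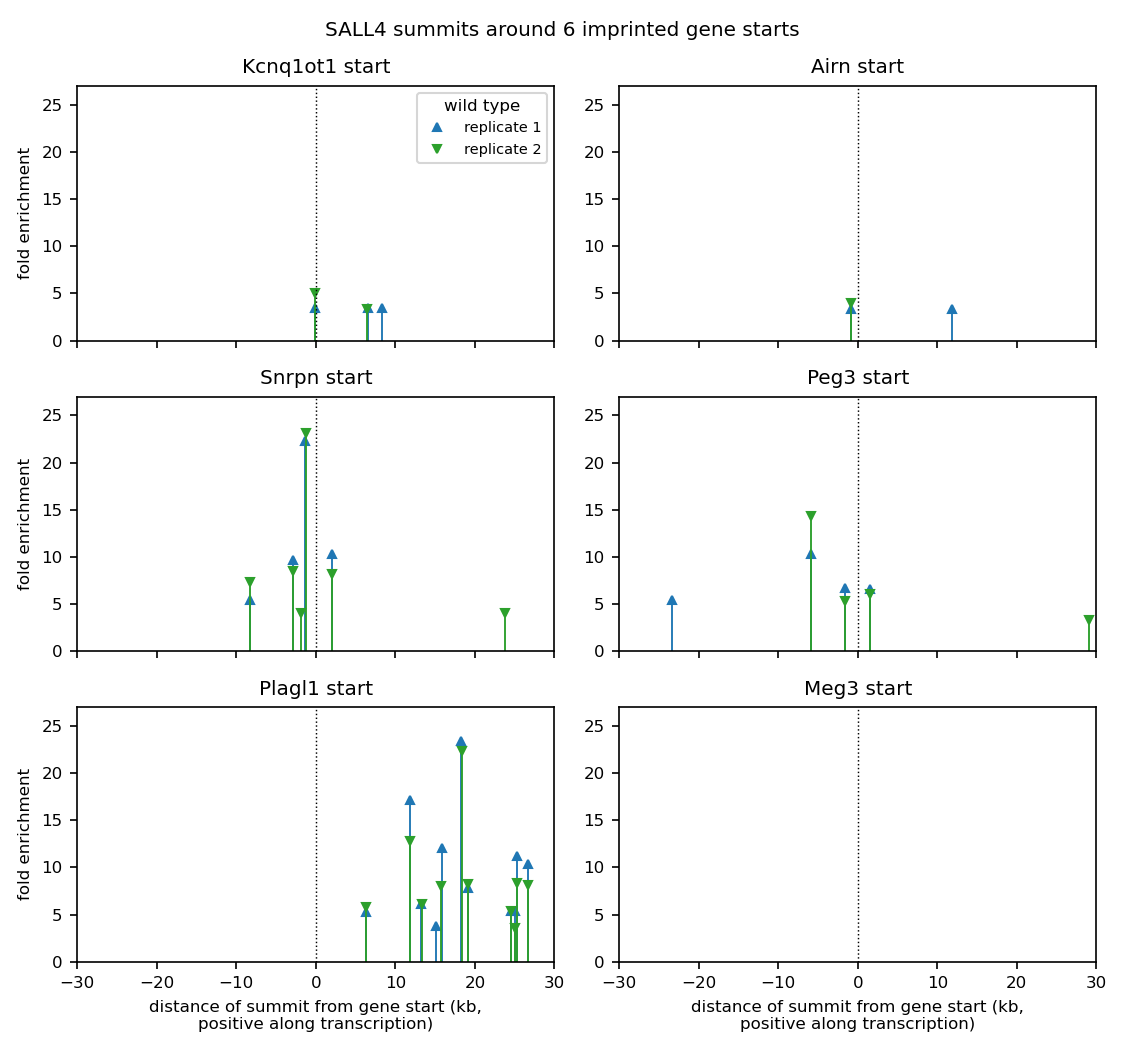
Fold enrichment of SALL4 summits (vertical axis, over local background) within 30 kb of 6 imprinted gene starts (horizontal axis, kb, positive along transcription) in wild-type replicates 1 and 2. Snrpn has its strongest summits just upstream of the start, Kcnq1ot1 and Airn have ones of 3.38 to 5.03 at or near it, Plagl1 has its summits inside the gene, and Meg3 has none.

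Sgce and Peg10 on chromosome 6 are paternally expressed from a shared control region, and their annotated ends face each other 102 bp apart. Sgce encodes a membrane protein of the sarcoglycan family and Peg10 a retrotransposon-derived protein needed in the placenta. Sgce had 11 and 10 intervals and 9 consensus regions, against a median of 2 at genes of its length, and 5.30% of those genes had as many. Its best-ranked region lay at 4739437 to 4740281, inside Sgce and 7.02 kb from Peg10, with fold enrichments of 24.3 and 23.3 (mean 23.8 ± 0.70, SD, n = 2). A region at 4677135 to 4678090, toward the other end of the gene, had 26.9 and 22.1. At the facing ends themselves no consensus region was found, and 1 interval of replicate 2 lay 1.98 kb inside Peg10.

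Plagl1 and Grb10, which stand alone, had the highest counts of the single genes. Plagl1 on chromosome 10 encodes a zinc-finger growth suppressor that acts on other imprinted genes. It had 11 intervals in each list and 10 consensus regions, all inside the gene and downstream of its listed start by at least 6.26 kb. Of 2191 coding genes of similar length, 1.28% had as many. Its strongest region, at 13107827 to 13109422, was 1596 bp wide, with fold enrichments of 23.4 and 22.4 (mean 22.9 ± 0.709, SD, n = 2).

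Grb10 on chromosome 11 encodes an adaptor that dampens insulin and growth factor signalling. It had 17 and 15 intervals and 9 consensus regions, of which 6 lay in the gene and 3 beyond its end. Coding genes of similar length had a median of 2, and 11.1% of them had as many or more. The strongest region of all the imprinted genes lay here, at 11940866 to 11941922. Its fold enrichments were 37.0 and 35.3 (mean 36.2 ± 1.24, SD, n = 2), from 68 and 66 fragments, and it ranked 66 and 68 in the lists. All 9 regions lay at least 66.8 kb downstream of both listed starts. Grb10 also had the most intervals found in 1 list only, 8 in replicate 1 and 5 in replicate 2.

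**Figure D4:**
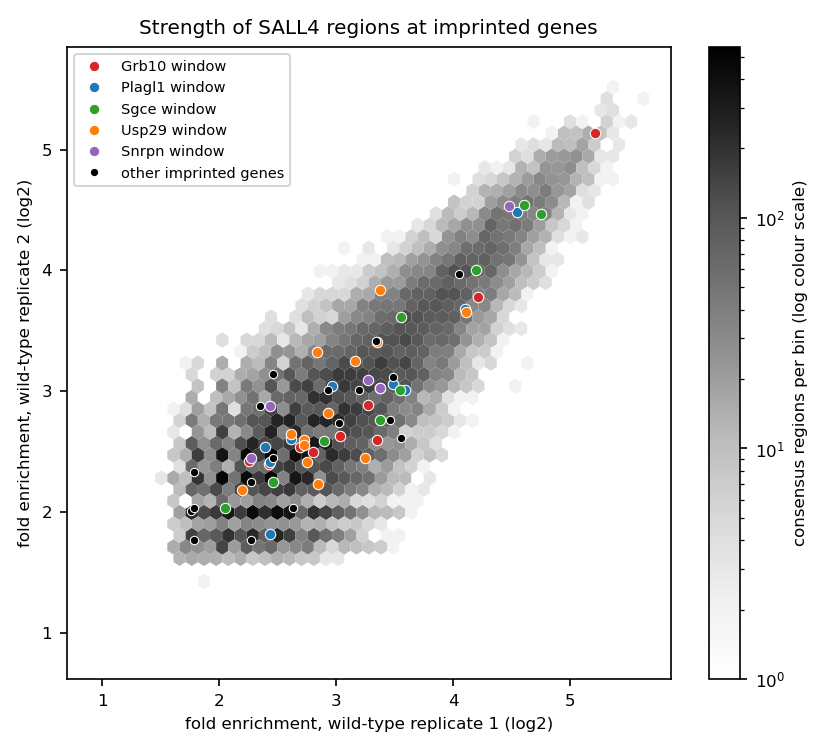
Fold enrichment (log2) of consensus SALL4 regions in wild-type replicate 1 (horizontal) and replicate 2 (vertical), with the 64 regions at imprinted genes as coloured points over all 37997 regions (grey). The imprinted regions span the cloud, from weak calls to the Grb10 region near its upper end.

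The other single genes had 0 to 3 consensus regions. Gnas on chromosome 2, a complex locus for a G protein subunit, had 5 and 4 intervals and 3 regions. Its best lay upstream of the gene at 174264248 to 174264605, with fold enrichments of 16.5 and 15.6. Impact, a translation regulator on chromosome 18, had 4 and 2 intervals and 2 regions, the better at 12966606 to 12967195 with 9.15 and 8.05. Rasgrf1 on chromosome 9, a guanine nucleotide exchange factor for Ras, had 2 intervals in each list and 2 regions, the better at 89968549 to 89968909 with 5.09 and 7.34. Zrsr1 on chromosome 11, a splicing factor retrogene, had 3 and 1 intervals and 1 region at 22985582 to 22985838, 13.6 kb downstream of its start, with 11.0 and 6.80. Ascl4 had 4 and 3 intervals and 3 regions, all outside the gene, the best at 85936367 to 85936806 with 10.1 and 10.7.

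Of the single genes named above with a start at a germline control region, Zrsr1 had 1 consensus region, and Nnat, Mest and Nap1l5 had none. Nnat, which encodes a brain proteolipid, had 0 and 1 intervals, the latter 1.11 kb from its start. Mest, which encodes a hydrolase-like protein, had 2 and 1 intervals. The nearest in each list lay on opposite sides of the neighbouring starts near the printed promoter, 1.35 kb downstream in replicate 1 and 1.39 kb upstream in replicate 2, and did not overlap. Nap1l5 had 0 in both lists.

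Over all members, 4 of 37 had a consensus region within 1 kb of a start, against 7.28% of coding genes. These were Kcnq1ot1, Airn, Snrpn and Sgce, and at Sgce the region lay 65 bp beyond the gene end that faces away from Peg10, which is where the gene is known to stop. Counted over the 30 members with a listed start, it was 3, or 10%, against 6.95% of coding genes with a listed start. These members had 43 listed promoters, and over all promoters 27025 genes had 32851. With −log10 q required to reach 10 in both lists, Snrpn alone had a consensus region within 1 kb of a start, against 1.85% of coding genes. Snrpn met the limit of 1 kb through replicate 1 alone, and without that replicate 3 members had a call within 1 kb of a start. Kcnq1ot1 and Airn are placed near a start by calls that rest on 4 fragments in replicate 1, and 9 and 7 in replicate 2. With summits required to lie within 100 bp of each other the count was 2. No share of coding genes was computed for this summit rule or without replicate 1. At the same strict q-value 10 of 37 members had a consensus region in their window, against 26.2% of coding genes.

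The 64 regions were of ordinary strength. Their median fold enrichments were 7.70 and 6.80 in replicates 1 and 2, and those of all consensus regions were 7.11 and 6.54. Among them, 8 ranked within the best 10% of consensus regions by their worse rank. Of the 64 summits, 48 lay inside a member gene, or 0.227 per 10 kb of gene body against 0.138 per 10 kb of flank. In all coding windows joined, the corresponding densities were 0.181 and 0.204. These differences were not tested. Of the 48, Usp29 held 11, Plagl1 10, Sgce 7 and Grb10 6, and no other member held more than the 5 of Snrpn. In gene bodies alone the median density over the members was 0.

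Further imprinted genes outside the list were read in the same way, from a list drawn up with earlier results of these data known. Of 33 found in the gene table, 19 had a consensus region, or 57.6% against 51.4% of coding genes, with a median of 0.0977 per 10 kb and a median length of 42.4 kb against 17.2 kb. The densest were Ddc, the neighbour of Grb10 that encodes a decarboxylase of amine synthesis, Casd1, which encodes a sialic acid acetyltransferase, and the amino acid transporter gene Slc38a4. Ddc had 33 and 26 intervals and 23 consensus regions, of which 3 also lay in the Grb10 window, and 0 in each knockout list. Casd1 had 5 and Slc38a4 had 6. None was found at Zim2, Mcts2, Blcap, Calcr, Tfpi2, H13, Cdh15, Nap1l4, Cd81, Tssc4, Tspan32, Ascl2, Rtl1 and Peg13. The name Zfp264 was not matched.

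Genes for proteins that set, read or erase imprints form the last list, drawn up in the same way. Of 20, 18 had a consensus region, against 51.4% of coding genes, and their median density was 0.556 per 10 kb. These genes were longer, with a median of 44.2 kb against 17.2 kb for coding genes. Set against coding genes of similar length, 14 of the 20 had more consensus regions than the matched median, 3 had the same number and 3 had fewer. Zfp57 stood first. It had 15 and 13 intervals in the wild-type lists, 0 in each knockout list and 12 consensus regions in a window around a gene of 9.57 kb. One of these overlapped a listed start, and 0.0459% of coding genes of similar length had as many. Cbx5, which encodes a heterochromatin protein, had 14 regions, and Tet1, which encodes an enzyme that oxidises methylcytosine, had 17. Dnmt1, which encodes the maintenance DNA methyltransferase, had 0 intervals in both wild-type lists. Ctcf, which encodes the insulator protein that binds the H19 control region, had 2 and 1 intervals and no consensus region.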

How the data were processed

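SALL4 CUT&RUN libraries of 2 mouse embryonic stem cell lines were used, with 2 libraries per line. Groups and replicate numbers follow the sample titles. The peak names of wild-type replicate 2 spell its genotype KWT, and the samples titled IgG give SALL4 as their antibody, under a different catalogue entry. Neither conflict was resolved. Per the submitters' processing notes, Trim Galore 0.6.0, cutadapt 1.18, FastQC 0.11.8, BWA 0.7.17 and MACS2 2.1.1.20160309 were used with GRCm38 or mm10. Settings and the control library of the peak calling are not given in the sources used here.

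The authors deposited 1 peak list per sample. In these deposited lists the score equals 10 times −log10 q, cut to a whole number. The authors' fold enrichment is a ratio taken at the summit, and so are the −log10 p-value and the −log10 q-value that the authors deposited. Ranks were taken within a list, and for some named regions the fold enrichments were averaged between the wild-type lists. Overlapping lines of a list were merged, keeping the strongest. Consensus regions overlapped by at least 1 bp between the wild-type lists. Whole summit pileups were recovered from fold enrichment and Poisson p-value with a pseudocount of 1, within 0.0001 in −log10 p, for 100% of the lines checked. The lines checked were 2000 drawn at random from each wild-type list and every knockout line. The recovery and the counting were tested on simulated data.

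Gene positions are those of RefSeq on GRCm38.p6. Starts come from its promoters where listed. Coordinates are written from 1. The members, lists, tests and alternatives were chosen with earlier results of these data known. Sites named are the best-ranked consensus region of each cluster or gene, those within 1 kb of a member start, those nearest the H19 and Meg3 starts, and any knockout interval in a window (there was none). In the 2 further lists the 3 densest genes and those with none are named. Any other site was singled out with its values known. The alternatives tried were stricter thresholds, flank, overlap, distance to starts, each replicate left out and a replicate block. Python 3.11.15, numpy 2.4.6, scipy 1.17.1, pandas 2.3.3 and matplotlib 3.10.9 were used.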

Additional observations from a re-analysis of the deposited data

How the results depend on the processing

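The log2 difference between wild-type and knockout intervals ranged from 4.32 (fold enrichment of at least 10) to 6.91 (50 kb flank) and from 6.34 to 6.60 with 1 replicate left out. The knockout count was 0 from the start, and of these settings only the wider flank could have raised it, so the direction is no sign of stability. The exact permutation test cannot pass 0.05 with 2 libraries per line. Pairing same-numbered libraries as a replicate block gave 6.47 (sign flips, exact p = 0.5, which 2 pairs cannot go below), and whether these numbers pair the libraries was not tested. Where −log10 q had to reach 10, the 64 consensus regions became 22, the 19 members with a region became 10, the 4 with a region at a start became 1 and the median density became 0. At a fold enrichment of at least 10, these were 14, 9, 1 and 0, and no shares of coding genes were computed at that cut. Fewer intervals enter both settings by construction.

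With a reciprocal overlap of at least 50%, 2 members had a region at a start, the median density was 0 and the share of intervals found in the other replicate was 61.9% in place of 75%. With summits within 100 bp these were 2, 0.0278 and 61.9%. The shares of coding genes with a region at a start were not computed under these overlap rules. The median density was 0 in gene bodies alone, 0.0915 with a flank of 50 kb and 0.0278 without Ascl4, a setting added after the files were read. A median near 0 moves with few genes, as 18 of 37 have none. Within 500 bp, 2 members had a region at a start, and no share of coding genes was computed at that distance. Within 3 kb 6 members had one, against 14% of coding genes. Over the fits that each left out 1 replicate, the consensus regions numbered 64 to 96, members with a region 19 to 23, those with a region at a start 3 to 4, and the median density was 0.0555 to 0.157 (0.127 without wild-type replicate 1 and 0.157 without wild-type replicate 2, where 1 list then counts alone). A wild-type list left out gives no share found in the other replicate. Calls on 4 fragments, the lowest pileup among the lines sampled from either wild-type list, are at or near the limit of this depth. In replicate 1 those at H19, the Kcnq1ot1 start and the Airn start were among them.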
